A study of Mus musculus with 9 samples.

Results

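H19, Igf2, Igf2r and Airn are the imprinted genes at the centre of the mouse IGF2 growth system, and their RNA was followed here in whole lung at E18.5, late in mouse gestation. The members were the table entries whose gene name equalled one of these 4 symbols, and each symbol gave 1 entry, so 4 of 27207 genes are described. All 4 passed the filter on low counts that left 19374 genes for testing. The study measured RNA by sequencing in 9 libraries, 3 per group. Weak CKO and strong CKO lungs (Dnmt1 conditional knockouts) both carried Tbx4-rtTA and Tet-O-Cre together with Dnmt1-D/D alleles and were grouped by phenotype. Weak CKO lungs were underdeveloped (hypoplastic) without haemorrhage, and strong CKO lungs were hypoplastic with haemorrhages spread through the parenchyma. The wild type lungs had no stated transgene or treatment, so the driver and the Cre are not controlled for separately. Tbx4-rtTA is a driver used to direct doxycycline-dependent Cre to lung mesenchyme, so other cells of a whole lung may keep Dnmt1, and the sources used here do not give the start of induction. Values per library are given in the order MUT_W_265_2, MUT_W_268_3 and MUT_W_549_3 for weak CKO, MUT_S_265_5, MUT_S_268_4 and MUT_S_860_3 for strong CKO, and WT_265_1, WT_268_1 and WT_549_2 for wild type, where the middle number is shared by some libraries of different groups.

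Imprinted genes are expressed mainly from the allele of 1 parent, and the choice is kept through cell divisions by DNA methylation, which Dnmt1 copies onto new strands. On mouse chromosome 7, an imprinting control region upstream of H19 is methylated on the paternal allele. Unmethylated, on the maternal allele, it binds the insulator protein CTCF, and shared enhancers then serve the noncoding RNA gene H19 and not the growth factor gene Igf2, which is expressed from the paternal allele. On mouse chromosome 17, the noncoding RNA Airn starts inside Igf2r from a promoter that is methylated on the maternal allele, runs against it on the paternal allele and silences it there, so Igf2r is expressed mainly from the maternal allele. Igf2r encodes the cation-independent mannose 6-phosphate receptor, which takes IGF2 from the cell surface to lysosomes for breakdown and sorts lysosomal enzymes. The libraries gave 1 value per gene and did not separate the parental alleles, and DNA methylation was not analysed here.

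The genes lay in 2 domains of the GRCm38 build. H19 (ENSMUSG00000000031, a lincRNA gene) covered chr7:142575529-142578143 and Igf2 (ENSMUSG00000048583, protein coding) chr7:142650766-142666816, both on the minus strand, with 72623 bases from the H19 start to the Igf2 end. Igf2r (ENSMUSG00000023830, protein coding) covered chr17:12682406-12769664 on the minus strand. Airn (ENSMUSG00000078247, antisense) covered chr17:12741311-12860136 on the plus strand. Airn started in intron 2 of the Igf2r transcript with 48 exons, 28353 bases from the Igf2r start, passed that start and ran on for 90472 bases. The 2 genes shared no exon base. Airn runs over the first exons of Igf2r, however, and the counting is not stated to use strand. Unspliced RNA of either gene could therefore add to the exon counts of the other.

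The promoters of Igf2r and Airn are shown because both genes fell together in the CKO lungs and run towards each other over their overlap. Both are RefSeq windows of build GRCm38.p6, from 250 bases before to 50 after the annotated start, written 5′ to 3′ on the gene's strand, and capitals mark CpG pairs, the letters that carry DNA methylation.
Igf2r promoter, chr17:12769657-12769956, minus strand: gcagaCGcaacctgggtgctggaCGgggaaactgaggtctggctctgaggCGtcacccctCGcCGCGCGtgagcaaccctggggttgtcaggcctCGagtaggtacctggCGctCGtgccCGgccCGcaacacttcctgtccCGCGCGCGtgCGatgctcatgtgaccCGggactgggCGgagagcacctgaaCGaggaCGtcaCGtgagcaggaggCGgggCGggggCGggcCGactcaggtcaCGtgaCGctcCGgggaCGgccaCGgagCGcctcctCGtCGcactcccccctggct
Airn promoter, chr17:12741061-12741360, plus strand: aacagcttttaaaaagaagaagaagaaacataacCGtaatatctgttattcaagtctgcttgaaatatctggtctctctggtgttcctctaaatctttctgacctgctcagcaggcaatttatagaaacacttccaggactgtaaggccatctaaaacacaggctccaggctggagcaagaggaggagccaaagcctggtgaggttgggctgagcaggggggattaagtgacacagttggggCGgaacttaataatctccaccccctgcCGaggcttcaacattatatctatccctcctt
The Igf2r window held 34 CpG pairs, and 7.73% of 32817 mouse promoter windows of this length held at least as many. The Airn window held 3, a count that 76.7% of windows reached, and the median window held 7. This window covers only 300 bases at the annotated start, and the region methylated on the maternal allele was not located here. The count of 3 therefore says nothing about the CpG content of that region. The 4 Igf2 windows held 2 to 24. The CTCF core motif (CCGC, any pair of bases, GG, any base, GGCAG), searched on both strands, had 0 matches in the windows of Igf2, Igf2r and Airn and occurred in 0.122% of all windows. No window of H19 was searched and its control region was not analysed here, so these counts say nothing about CTCF binding there. H19 RNA also carries a microRNA hairpin, and its mature products are shown because they come from the 1 member that rose, with the seed (bases 2 to 8) in capitals, from RefSeq on the minus strand of GRCm38.p6.
mmu-miR-675-5p, chr7:142577112-142577133: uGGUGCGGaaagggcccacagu
mmu-miR-675-3p, chr7:142577078-142577099: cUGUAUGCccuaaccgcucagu
The seeds of these products differ from each other. Mature microRNAs were not measured here, so the counts below speak of the H19 transcript.

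Column totals ran from 25607595 to 33156732 counts per library, and the first check was of the targeted gene. Mean Dnmt1 levels were 69.6 ± 10.8 CPM (counts scaled to a common library size, with TMM factors) for weak CKO, 68.6 ± 8.91 for strong CKO and 99.1 ± 21.0 for wild type lungs (SD, n = 3 each). By edgeR's quasi-likelihood test the gene fell in strong CKO, with a log2 change of −0.53 ± 0.17 (SE) and an adjusted p of 0.0433, while the weak CKO value was −0.51 ± 0.17 (adjusted p = 0.0727). The strong CKO call was lost in 10 of 18 other settings without a covariate. Among these it was lost without MUT_S_265_5, MUT_S_860_3, MUT_W_268_3, WT_268_1 or WT_549_2, where the log2 change ran from −0.55 to −0.36. The counts cover the whole gene and loss of single exons was not measured here, so they do not give the extent of deletion. The tissue label was borne out by 10 lung epithelial markers, none at 0, whose summed level was 12200 to 13100 CPM in weak CKO, 10400 to 11600 CPM in strong CKO and 11200 to 16500 CPM in wild type lungs. Since the labels name no litter or animal per library, the p-values rest on the spread among these 9 samples, which may be technical. In RNA from whole lung, fewer cells that express a gene and less RNA of it per cell cannot be told apart.

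Of the 4 entries, H19 was by far the most abundant. Per kilobase of exon (the union of annotated exons), H19 stood at 802 ± 20.5 in weak CKO, 1000 ± 128 in strong CKO and 417 ± 16.7 CPM per exon kb in wild type lungs. Igf2r stood at 48.3 ± 4.71 in weak CKO, 39.5 ± 6.19 in strong CKO and 83.8 ± 2.05 CPM per exon kb in wild type lungs, and Airn at 10.9 ± 0.234 in weak CKO, 9.66 ± 0.813 in strong CKO and 17.6 ± 4.47 CPM per exon kb in wild type lungs. The Igf2 entry was lowest, at 1.77 ± 0.101 in weak CKO, 1.60 ± 0.122 in strong CKO and 2.30 ± 0.647 CPM per exon kb in wild type lungs (SD, n = 3 each). No value of one entry overlapped that of the next in any group, so these entries kept the order H19, Igf2r, Airn, Igf2 in all 9 libraries. The Igf2 entry may hold only part of the reads of Igf2, as described below. The place of the Igf2 gene itself in this order is therefore not settled. Among 19362 genes with an exon length, H19 ranked 25 in weak CKO, 23 in strong CKO and 52 in wild type lungs. The mean within-library ratio of H19 to Igf2r on this scale was 16.7 ± 1.41 in weak CKO, 26.0 ± 6.84 in strong CKO and 4.98 ± 0.083 in wild type lungs (SD, n = 3 each). With the gene lengths deposited by the authors, which sum the exons of all transcripts, the same ratio was 5.04 in weak CKO, 7.87 in strong CKO and 1.50 in wild type lungs, so its size depends on the length used.

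**Figure D1:**
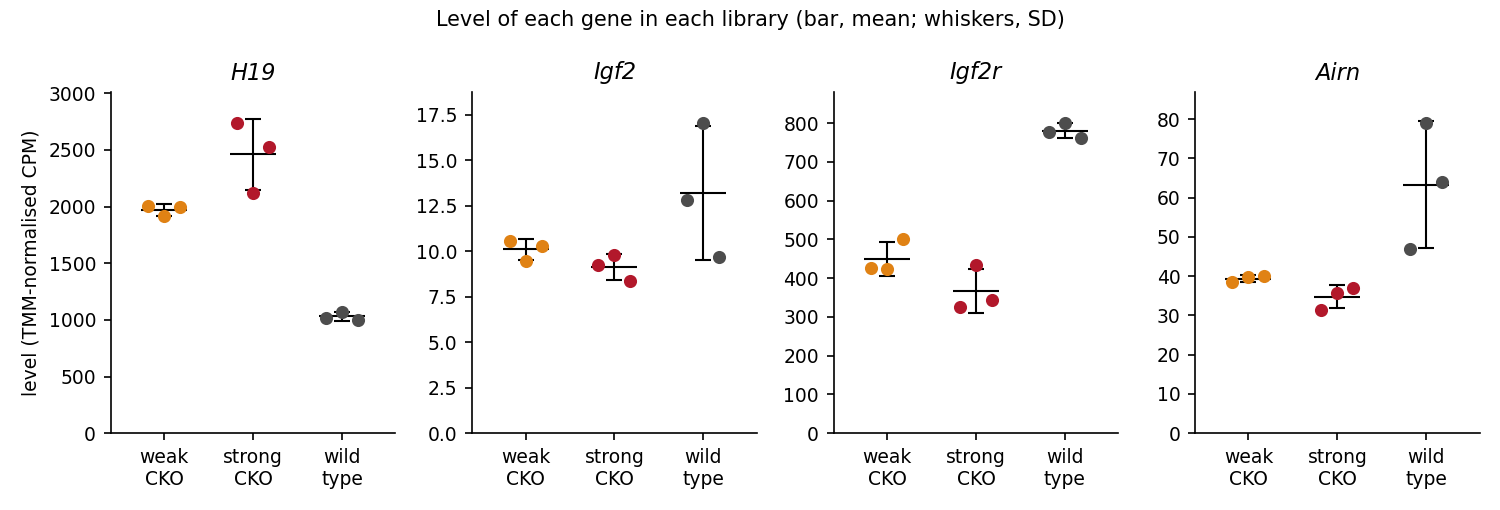
TMM-normalised CPM of each gene on a linear axis from 0 (points, libraries; bar and whiskers, mean and SD; n = 3 per group). H19 sits between 1910 and 2740 CPM in the 6 CKO libraries, above all wild type libraries, Igf2r and Airn sit below all wild type libraries, and Igf2 overlaps.

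H19 rose and Igf2r and Airn fell in both CKO groups, while Igf2 was not called in either. In weak CKO, 3 of the 4 genes were called (1 up, 2 down), where 14.5% of all genes tested were called (9.09% up and 5.38% down). In strong CKO the same 3 genes were called in the same directions, where 25.6% of all genes were called (14.6% up and 11.0% down). Both comparisons used the same 3 wild type libraries, so they are not independent of each other. The shares of genes called also rest on single libraries: 1310 genes were called in weak CKO without MUT_W_268_3, against 2803 with all libraries, and 3101 in strong CKO without MUT_S_265_5, against 4969.

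H19, the growth-restraining noncoding RNA of the chromosome 7 domain, had 2006, 1915 and 1997 CPM in the 3 weak CKO libraries. It had 2737, 2117 and 2527 CPM in the 3 strong CKO libraries, and 1012, 1073 and 995 CPM in the wild type libraries. Every CKO library lay above every wild type library, which in this direction was true of 17.7% of genes tested in weak CKO and 22.7% in strong CKO. The rise was 1.92-fold in weak CKO (log2 change 0.94 ± 0.10, SE; adjusted p = 0.000278) and 2.40-fold in strong CKO (1.26 ± 0.10; adjusted p = 3.31e-05). Among called rises, 46.2% in weak CKO and 31.6% in strong CKO were larger than that of H19, so many genes rose by more. H19 took 0.194% to 0.202% of all counts in weak CKO, 0.217% to 0.284% in strong CKO and 0.0949% to 0.105% in wild type lungs. Within a shared library number the log2 difference of CKO from wild type was 0.84 to 1.01 in the 3 weak CKO libraries and 0.98 to 1.44 in the 2 strong CKO libraries that have a wild type partner.

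Igf2, the fetal growth factor gene, was the least certain of the 4. The entry had 10.6, 9.46 and 10.3 CPM in the 3 weak CKO libraries, and 9.26, 9.78 and 8.39 CPM in the 3 strong CKO libraries. The wild type libraries had 12.8, 17.1 and 9.68 CPM, so the wild type group spread widely and its lowest library overlapped both CKO groups. The log2 change was −0.38 ± 0.18 in weak CKO (adjusted p = 0.184) and −0.53 ± 0.18 in strong CKO (adjusted p = 0.0523). Without WT_549_2 it was called in weak CKO (−0.57, adjusted p = 0.0385) and in strong CKO (−0.71, adjusted p = 0.00863), and in strong CKO it was also called by DESeq2 (−0.54, adjusted p = 0.0256) and with DESeq2 size factors in edgeR (−0.54, adjusted p = 0.0498). Without WT_268_1, the highest wild type library, it was −0.16 in weak CKO (adjusted p = 0.547) and −0.30 in strong CKO (adjusted p = 0.176). With limma on log2(RPKM + 1) it was −0.13 in weak CKO and −0.18 in strong CKO. Of the 5723 exon bases of Igf2, 3596 (62.8%) lie on the same strand in exons of Gm49394, a gene model not analysed here, and these include all 540 coding bases of Igf2. The sources used here do not say how shared exons were counted, and the entry cannot be read as the full level of Igf2 RNA.

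The ratio of H19 to Igf2 counts within a library does not depend on library scaling, and it was higher in every CKO library than in any wild type library. It was 190, 202 and 193 in the 3 weak CKO libraries and 295, 216 and 301 in the 3 strong CKO libraries. The wild type libraries gave 78.7, 62.9 and 103. The 6 CKO libraries exceeded the 3 wild type libraries by 1.52 on the log2 scale (exact two-sided permutation test, p = 0.0238, the smallest possible with 6 against 3; 0.143 after Benjamini-Hochberg adjustment over 6 ratio tests). The smallest adjusted p that these 6 tests could reach was 0.0714, so no ratio could pass the correction at this sample size. Against wild type, the difference was 1.29 for weak CKO and 1.75 for strong CKO (exact permutation p = 0.1 each, the smallest possible with 3 against 3). Since Igf2 may be counted in part, both the level of the ratio and its differences between groups carry the limit given above. H19 alone had a log2 change of 0.94 in weak CKO and 1.26 in strong CKO.

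Igf2r, the receptor that clears IGF2, had 426, 423 and 500.1 CPM in the 3 weak CKO libraries. It had 325, 433 and 344 CPM in the 3 strong CKO libraries, and 778, 800.1 and 762 CPM in the wild type libraries. The highest CKO library stood at 500.1 CPM and the lowest wild type library at 762 CPM, so the groups were far apart. In this direction the groups did not overlap for 13.8% of genes tested in weak CKO and for 19% in strong CKO. The fall was 1.74-fold in weak CKO (log2 change −0.80 ± 0.11, SE; adjusted p = 0.00128) and 2.12-fold in strong CKO (−1.09 ± 0.11; adjusted p = 0.000131). Among called falls, 26.6% in weak CKO and 16.6% in strong CKO were larger. By CPM, Igf2r ranked 240 of 19374 genes in weak CKO, 315 in strong CKO and 103 in wild type lungs. Within a shared library number the log2 difference was −0.92 to −0.61 in weak CKO and −1.26 and −0.89 in strong CKO.

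Airn, the antisense RNA that represses Igf2r on the paternal allele, fell as well. It had 38.4, 39.7 and 40.0 CPM in the 3 weak CKO libraries, and 31.4, 35.7 and 37.0 CPM in the 3 strong CKO libraries. The wild type libraries had 46.9, 79.0 and 64.1 CPM, all above the CKO libraries but spread over a far wider range than the weak CKO libraries. The log2 change was −0.69 ± 0.16 in weak CKO (SE; adjusted p = 0.0183) and −0.87 ± 0.16 in strong CKO (adjusted p = 0.0036). Among called falls, 32.9% in weak CKO and 24.7% in strong CKO were larger than that of Airn. The weak CKO call ended without MUT_W_265_2 (−0.67, adjusted p = 0.066), MUT_W_268_3 (−0.69, adjusted p = 0.0716) or WT_549_2 (−0.68, adjusted p = 0.0574). Of the 3597 exon bases of Airn, 114 lay inside the Igf2r span and 3483 beyond the Igf2r start, so nearly all counted exon bases lay past the Igf2r promoter.

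Airn counts were set against Igf2r counts of the same library, with the limit on unspliced RNA given above. The ratio of Airn to Igf2r counts was 0.0903, 0.0939 and 0.0800 in the 3 weak CKO libraries and 0.0967, 0.0825 and 0.108 in the 3 strong CKO libraries. The wild type libraries gave 0.0603, 0.0988 and 0.0841, a range that the CKO values overlapped. The 6 CKO libraries differed from the 3 wild type libraries by 0.20 on the log2 scale (exact two-sided permutation p = 0.357; 0.535 after adjustment over 6 ratio tests). The log2 ratios had an SD of 0.36 among the wild type libraries alone, larger than this difference.

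**Figure D2:**
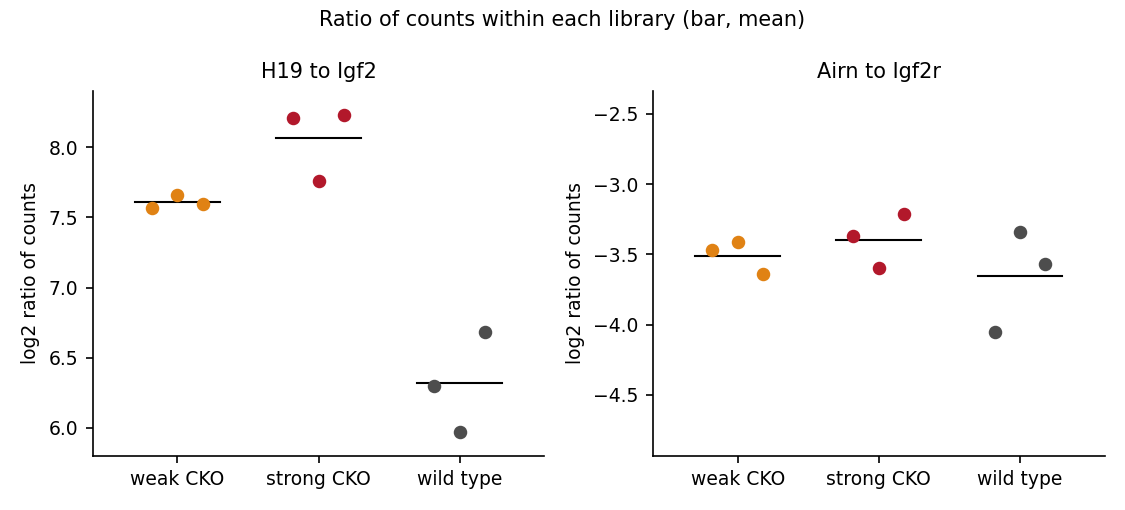
Log2 ratio of raw counts of H19 to Igf2 (left) and of Airn to Igf2r (right) in each library (points; bar, group mean; both panels span the same log2 range). The H19 to Igf2 ratio separates the CKO libraries from wild type, and the Airn to Igf2r ratio does not.

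The genes lying inside the Airn transcription unit had negative values too. Apart from Igf2r, 6 annotated genes overlapped the Airn span: Mas1 (an angiotensin peptide receptor gene, overlapped in part), Gm23833, Gm16574, Gm7162, CT030636.1 and CT030636.2. All 6 had negative log2 changes in both CKO groups, from −1.01 to −0.65 in weak CKO and from −0.99 to −0.71 in strong CKO. In strong CKO 2 of them were called, Gm16574 (−0.92 ± 0.23, adjusted p = 0.0167) and Gm7162 (−0.99 ± 0.25, adjusted p = 0.0188), and in weak CKO none was, with adjusted p of 0.0686 to 0.366. The share of all genes called down was 11.0% in strong CKO and 5.38% in weak CKO. The call of Gm16574 ended without MUT_S_265_5, MUT_S_268_4 or WT_549_2 (−0.95 to −0.71), and that of Gm7162 without MUT_S_265_5, MUT_S_268_4 or WT_268_1 (−0.97 to −0.91). They were grouped by position with the changes of Airn known. Gm23833 and Gm16574 lie on the Airn strand and the other 4 on the opposite one, and since the counting is not stated to use strand, reads of these entries cannot be told apart from unspliced Airn RNA. The 2 called entries are processed pseudogenes, whose counts are also uncertain because reads can match the parent genes. Between H19 and the Igf2 antisense transcript Igf2os, the noncoding genes Gm33148 (−1.15 ± 0.71 in weak CKO, −1.84 ± 0.77 in strong CKO) and Igf2os (−0.59 ± 0.24 in weak CKO, −0.66 ± 0.24 in strong CKO) had negative values without being called (adjusted p of 0.074 to 0.327).

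Called neighbours were then counted around both domains, and the counts were not compared by a test. Within 500 kb of the H19 start, 17 genes other than the members were tested, and 7 were called up and 2 down in weak CKO (52.9% of them) and 9 up and 1 down in strong CKO (58.8%). Within 500 kb of the Airn start, 2 of 17 were called up and 1 down in weak CKO (17.6%) and 3 up and 3 down in strong CKO (35.3%), beside 14.5% of all genes in weak CKO and 25.6% in strong CKO. Of these 17, 6 are the genes inside the Airn span described above. Among the other 11, 2 were called up and 1 down in weak CKO (27.3%) and 3 up and 1 down in strong CKO (36.4%). Of the 12 chromosome 7 neighbours listed by name, 10 were tested, and 5 rose and 1 fell in weak CKO and 6 rose in strong CKO (median log2 change 0.29 in weak CKO and 0.39 in strong CKO, against −0.01 in weak CKO and 0.00 in strong CKO over all genes). Lsp1, a leukocyte actin-binding protein gene near H19, averaged 91.6 ± 4.22 CPM in weak CKO, 116 ± 11.4 CPM in strong CKO and 48.6 ± 7.08 CPM in wild type lungs (log2 change 0.91 ± 0.11, adjusted p = 0.000473, in weak CKO and 1.26 ± 0.11, adjusted p = 4.37e-05, in strong CKO). The fast skeletal muscle troponin genes Tnni2 (log2 change 2.39 ± 0.22 in weak CKO, 2.61 ± 0.22 in strong CKO) and Tnnt3 (0.98 ± 0.23 in weak CKO, 1.40 ± 0.23 in strong CKO) rose at low levels, Tnni2 with means of 2.65 CPM in weak CKO, 3.08 CPM in strong CKO and 0.502 CPM in wild type lungs. Syt8, a synaptotagmin gene (2.05 ± 0.49 in weak CKO, 2.39 ± 0.48 in strong CKO), and Ctsd, the gene of the lysosomal protease cathepsin D (0.38 ± 0.09 in weak CKO, 0.41 ± 0.09 in strong CKO), rose as well. The weak CKO call of Tnnt3 ended without MUT_W_265_2, WT_268_1 or WT_549_2 (0.86 to 0.95), that of Syt8 without MUT_W_265_2, WT_265_1 or WT_268_1 (1.71 to 2.13) and that of Ctsd without MUT_W_265_2 or MUT_W_268_3 (0.35 to 0.36). The mitochondrial ribosomal protein gene Mrpl23 fell in weak CKO (−0.45 ± 0.14, adjusted p = 0.0488) and was not called in strong CKO (−0.35 ± 0.14, adjusted p = 0.0843). Its call was lost in 13 of 18 other settings, 8 of them with 1 library left out (every library but WT_265_1; −0.50 to −0.38).

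Around Igf2r, 10 of the 12 listed neighbours were tested, and 2 rose and 1 fell in weak CKO and 3 rose and 1 fell in strong CKO (median log2 change 0.08 in each). Calls over all genes tested were 14.5% in weak CKO and 25.6% in strong CKO. Slc22a3, an organic cation transporter gene that Airn silences on the paternal allele in mouse placenta, fell, with means of 1.77 ± 0.504 CPM in weak CKO, 1.12 ± 0.429 CPM in strong CKO and 5.08 ± 1.16 CPM in wild type lungs (log2 change −1.52 ± 0.30, adjusted p = 0.00806, in weak CKO and −2.18 ± 0.31, adjusted p = 0.000857, in strong CKO). Pnldc1, the gene of a nuclease that trims piRNAs, rose to 1.88 to 2.93 CPM for weak CKO and 2.57 to 3.39 CPM for strong CKO, against 0.768 to 1.03 CPM in wild type lungs (log2 change 1.54 ± 0.24 in weak CKO, 1.79 ± 0.24 in strong CKO). Sod2, the mitochondrial superoxide dismutase gene, rose by 0.38 ± 0.10 in weak CKO and 0.39 ± 0.10 in strong CKO on the log2 scale. The weak CKO call of Sod2 ended without MUT_W_265_2, MUT_W_268_3, WT_268_1 or WT_549_2 (0.30 to 0.39), and the strong CKO call without MUT_S_265_5, WT_268_1 or WT_549_2 (0.31 to 0.36). Mrpl18, Tcp1, Acat2, Acat3 and Wtap were not called, with log2 changes from −0.13 to 0.24.

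**Figure D3:**
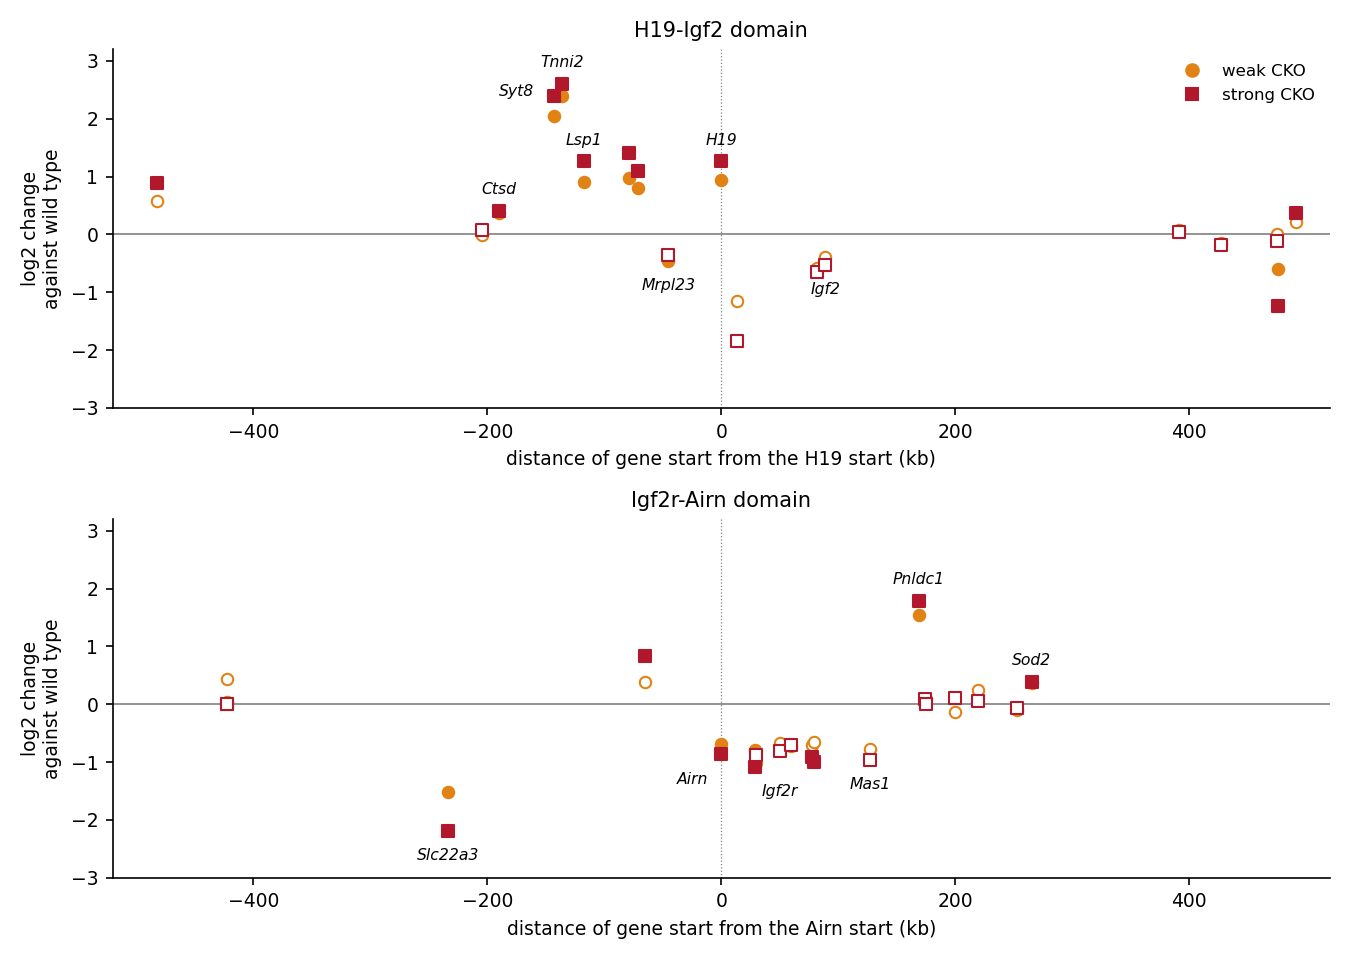
Log2 change against wild type (weak CKO, circles; strong CKO, squares; filled, adjusted p under 0.05) by distance of each gene's start from the H19 start (top) or the Airn start (bottom), within 500 kb. Genes inside the Airn span lie together below 0; Gm7579, at 1.82 CPM in weak CKO, 2.19 CPM in strong CKO and 0.0104 CPM in wild type lungs, is not drawn.

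Marker genes of lung mesenchyme moved with Igf2r and Airn. Over all genes tested, 5.38% fell in weak CKO and 11.0% in strong CKO. Of 10 mesenchymal markers, 6 fell in weak CKO and 9 in strong CKO (median log2 change −0.63 in weak CKO and −0.89 in strong CKO), and none was at 0. Their summed level was 3460 to 3640 CPM in weak CKO, 2450 to 3370 CPM in strong CKO and 5470 to 6180 CPM in wild type lungs. Per 1000 CPM of these markers, Igf2r stood at 118 to 137 CPM in weak CKO, 114 to 133 CPM in strong CKO and 129 to 139 CPM in wild type lungs, so the groups overlapped. On the same scale Airn stood at 10.6 to 11.5 CPM in weak CKO, 10.6 to 12.8 CPM in strong CKO and 8.34 to 12.8 CPM in wild type lungs. H19 averaged 553 CPM in weak CKO and spanned 628 to 1120 CPM in strong CKO and 174 to 182 CPM in wild type lungs, with every CKO library above wild type. The Igf2 entry stood at 2.73 to 2.93 CPM in weak CKO, 2.79 to 3.78 CPM in strong CKO and 1.77 to 2.76 CPM in wild type lungs, so on this scale the CKO values were not below those of wild type. Macf1, a cytoskeletal gene of wide expression, gave 53.7% to 62.6% of the summed level. Without it Igf2r again overlapped, at 290 to 310 CPM in weak CKO, 271 to 304 CPM in strong CKO and 299 to 346 CPM in wild type lungs, but as log2 Igf2r minus the mean log2 of the other 9 markers it did not (at most 2.01 in the CKO libraries and 2.07 to 2.18 in wild type lungs). Per 1000 CPM of the endothelial markers described below, Igf2r in CKO lungs did not overlap wild type. It stood at 184 to 207 in weak CKO, 175 to 200 in strong CKO and 234 to 303 in wild type lungs. Airn overlapped on that scale (16.5 to 17.2, 16.5 to 18.8 and 14.1 to 29.9 in the same order). These ratios were chosen after the values were seen and carry no test, and the part of mesenchymal RNA in the falls of Igf2r and Airn was not tested.

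Other cell types moved with the genotype as well. All 10 endothelial markers fell in strong CKO and 6 of them in weak CKO, with summed levels of 2300 to 2420 CPM in weak CKO, 1750 to 2160 CPM in strong CKO and 2640 to 3320 CPM in wild type lungs. Falls made up 5.38% of all genes tested in weak CKO and 11.0% in strong CKO. The 9 skeletal muscle markers in the table summed to 18.4 to 20.1 CPM in weak CKO, 18.3 to 27.3 CPM in strong CKO and 11.6 to 13.7 CPM in wild type lungs, so this level separated the CKO libraries from wild type. Its members went both ways. In weak CKO 3 of the 8 tested rose, Myh3 (2.47, adjusted p = 0.000518), Tnni2 and Tnnt3, and Myh8 fell (−1.27, adjusted p = 0.0326). In strong CKO these 3 and Ckm (0.97, adjusted p = 0.0232) rose and none was called down. The lowest value of the list in strong CKO was −0.61, and Mylpf stood at −0.32 and Actn3 at −0.28. Rises made up 9.09% of all genes tested in weak CKO and 14.6% in strong CKO. Tnni2 and Tnnt3 are also the neighbours of H19 named above. With the mean log2 level of the 8 tested ones as a covariate, H19 was no longer called (0.74, adjusted p = 0.191, in weak CKO and 0.97, adjusted p = 0.246, in strong CKO), and neither was Igf2r (−0.62, adjusted p = 0.341, in weak CKO and −0.83, adjusted p = 0.358, in strong CKO). Airn turned positive (0.08, adjusted p = 0.934, in weak CKO and 0.25, adjusted p = 0.804, in strong CKO), and over all genes the calls dropped to 206 in weak CKO and 80 in strong CKO. With Tnni2 and Tnnt3 left out of the covariate, a setting chosen after seeing the data, H19 was called (0.865, adjusted p = 0.00421, in weak CKO and 1.09, adjusted p = 0.0164, in strong CKO). Igf2r was called too (−0.74, adjusted p = 0.0137, in weak CKO and −0.98, adjusted p = 0.0302, in strong CKO). Airn then lost its calls (−0.41, adjusted p = 0.126, in weak CKO and −0.31, adjusted p = 0.468, in strong CKO). Under the first covariate Dnmt1 and Mbl1 in strong CKO, and Sod2 and Uggt2 in both CKO groups, also changed sign, as did Gm7162 and Igfbp7 in strong CKO. Summed erythroid markers were 3780 to 4400 CPM in weak CKO, 6770 to 12700 CPM in strong CKO and 3950 to 7400 CPM in wild type lungs, and leaving out the haemoglobin genes before normalisation changed no call of the 4 genes. Summed fetal liver markers were 52.0 to 81.2 CPM in weak CKO, 55.3 to 87.6 CPM in strong CKO and 28.9 to 51.6 CPM in wild type lungs. Cardiac muscle markers summed to 255 to 337 CPM in weak CKO, 254 to 438 CPM in strong CKO and 169 to 243 CPM in wild type lungs. No marker listed was at 0 in any group, and the part of these cell types in the changes of the 4 genes was not tested.

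The ligands, receptors and binding proteins that act with IGF2 moved in both directions. Of 15 genes of this list, 14 were tested, and 3 rose and 3 fell in weak CKO and 4 rose and 4 fell in strong CKO (median log2 change −0.18 in weak CKO and −0.16 in strong CKO), beside 14.5% of all genes called in weak CKO and 25.6% in strong CKO. Among ligands, Igf1 averaged 380 ± 39.0 CPM in weak CKO, 406 ± 11.2 CPM in strong CKO and 127 ± 46.0 CPM in wild type lungs, a log2 rise of 1.58 ± 0.23 in weak CKO (adjusted p = 0.00294) and 1.68 ± 0.23 in strong CKO (adjusted p = 0.00128). Among receptors, Igf1r, which signals for both IGF1 and IGF2, fell to 187 ± 10.5 CPM (weak CKO) and 166 ± 13.3 CPM (strong CKO), against 242 ± 8.57 CPM in wild type lungs (−0.37 ± 0.07, adjusted p = 0.00866, in weak CKO and −0.54 ± 0.07, adjusted p = 0.000614, in strong CKO). The insulin receptor gene Insr, one isoform of which also binds IGF2, fell to 148 ± 8.10 CPM (weak CKO) and 128 ± 6.52 CPM (strong CKO), against 177 ± 4.89 CPM in wild type lungs (−0.26 ± 0.06, adjusted p = 0.0233, in weak CKO and −0.47 ± 0.06, adjusted p = 0.000592, in strong CKO). So Igf2r, Igf1r and Insr were all lower in both CKO groups, with the fall of Igf2r the largest of the 3 by fitted change. Of the binding proteins that hold IGFs outside cells, Igfbp5 rose by 0.49 ± 0.13 in weak CKO (adjusted p = 0.0329) and 0.55 ± 0.13 in strong CKO (adjusted p = 0.0114). Igfbp7 rose by 0.87 ± 0.23 in weak CKO (adjusted p = 0.0399) and 0.88 ± 0.23 in strong CKO (adjusted p = 0.0233). Igfbp2 rose in strong CKO by 0.78 ± 0.19 (adjusted p = 0.0122) and stood at 0.29 ± 0.19 in weak CKO (adjusted p = 0.344). Igfbp3, Igfbp4 and Igfbp6 were not called in either group. Igfbp3 stood at −0.98 in weak CKO (adjusted p = 0.128) and −0.77 in strong CKO (adjusted p = 0.172). Igfbp6 stood at −0.21 in weak CKO (adjusted p = 0.445) and −0.43 in strong CKO (adjusted p = 0.0821). Igfbp4 stood at 0.10 in weak CKO and 0.01 in strong CKO. Igf2bp3, the gene of an RNA-binding protein that acts on Igf2 mRNA, fell by 0.30 in weak CKO and by 0.33 in strong CKO on the log2 scale (adjusted p = 0.0174 in weak CKO, 0.00631 in strong CKO). With 1 library left out, several of these weak CKO calls ended. They were Insr without MUT_W_268_3, MUT_W_549_3 or WT_268_1 (−0.24 to −0.22), Igfbp5 without MUT_W_265_2, MUT_W_268_3 or any wild type library (0.34 to 0.56), Igfbp7 without MUT_W_265_2, MUT_W_268_3, WT_268_1 or WT_549_2 (0.62 to 0.94), and Igf2bp3 without MUT_W_265_2, MUT_W_268_3 or WT_549_2 (−0.31 to −0.27). In strong CKO, Igfbp2 ended without MUT_S_265_5 (0.62) and Igfbp7 without MUT_S_265_5, MUT_S_860_3, WT_268_1 or WT_549_2 (0.78 to 0.86).

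Genes of the lysosomal route that Igf2r serves were listed next. Of 22 genes for mannose 6-phosphate tagging, sorting and lysosomal hydrolases, 4 rose and 0 fell in weak CKO and 7 rose and 0 fell in strong CKO (median log2 change 0.18 in each), where 9.09% of all genes rose in weak CKO and 14.6% in strong CKO. Ctsd, already counted above as a neighbour of H19, is among those that rose in both groups. M6pr, the gene of the other mannose 6-phosphate receptor, averaged 167 ± 7.28 CPM in weak CKO, 175 ± 3.41 CPM in strong CKO and 148 ± 6.21 CPM in wild type lungs, and was called in strong CKO (0.24 ± 0.06, adjusted p = 0.013) but not in weak CKO (0.18 ± 0.06, adjusted p = 0.0694). Psap, the gene of the sphingolipid activator precursor prosaposin, averaged 514 ± 21.1 CPM in weak CKO, 520 ± 43.2 CPM in strong CKO and 405 ± 30.1 CPM in wild type lungs (0.34 ± 0.08, adjusted p = 0.0228, in weak CKO and 0.36 ± 0.08, adjusted p = 0.0107, in strong CKO). Arsb, the gene of the hydrolase arylsulfatase B, rose by 0.47 ± 0.12 in weak CKO and 0.49 ± 0.12 in strong CKO, and Gusb, the gene of beta-glucuronidase, by 0.25 ± 0.06 in strong CKO (adjusted p = 0.0118; 0.20 ± 0.06 and adjusted p = 0.0503 in weak CKO). The weak CKO calls of Psap (0.31 to 0.33) and Arsb (0.42 to 0.44) ended without MUT_W_265_2, MUT_W_268_3, WT_268_1 or WT_549_2. Macrophages are rich in these enzymes, and of 10 macrophage markers 6 rose in weak CKO and 7 in strong CKO, with none falling. Their summed level was 1070 to 1570 CPM in weak CKO, 872 to 1260 CPM in strong CKO and 798 to 1570 CPM in wild type lungs, and their part in the lysosomal changes was not tested.

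The factors that set or keep the imprints were read in the same way. Of 10 tested regulators, 1 rose in weak CKO (Plagl1), and 1 rose and 1 fell in strong CKO, the fall being Dnmt1 itself (median log2 change −0.08 in each), beside 14.5% of all genes called in weak CKO and 25.6% in strong CKO. The insulator gene Ctcf stood at −0.08 ± 0.06 in weak CKO (adjusted p = 0.478) and −0.07 ± 0.06 in strong CKO (adjusted p = 0.457), and Zfp57, whose product binds methylated imprinting control regions, at −0.40 ± 0.13 in weak CKO (adjusted p = 0.0616) and −0.30 ± 0.13 in strong CKO (adjusted p = 0.108). Plagl1, an imprinted transcription factor gene that regulates H19 and Igf2 in mouse, rose, with means of 432 ± 47.9 CPM in weak CKO, 439 ± 24.7 CPM in strong CKO and 335 ± 30.5 CPM in wild type lungs (0.37 ± 0.10, adjusted p = 0.0296, in weak CKO and 0.39 ± 0.10, adjusted p = 0.0142, in strong CKO). Its weak CKO call ended without MUT_W_265_2, MUT_W_268_3, WT_265_1 or WT_549_2 (0.28 to 0.40), and its strong CKO call without MUT_S_265_5 or MUT_S_860_3 (0.37 to 0.38).

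Plagl1 also belongs to a network of imprinted growth genes, of which 13 were tested. In weak CKO 2 rose and 2 fell, and in strong CKO 4 rose and 4 fell (median log2 change −0.03 in weak CKO and −0.19 in strong CKO). The share called over all genes tested was 14.5% in weak CKO and 25.6% in strong CKO. Dcn, the gene of the matrix proteoglycan decorin, averaged 75.4 ± 5.03 CPM in weak CKO, 114 CPM (92.7 to 128) in strong CKO and 29.1 ± 3.39 CPM in wild type lungs (1.37 ± 0.13, adjusted p = 0.000103, in weak CKO and 1.96 ± 0.13, adjusted p = 9.41e-06, in strong CKO). Dlk1, a paternally expressed Notch-type ligand gene, averaged 729 ± 123 CPM in weak CKO, 597 ± 73.2 CPM in strong CKO and 1070 ± 170 CPM in wild type lungs (−0.56 ± 0.15, adjusted p = 0.0359, in weak CKO and −0.85 ± 0.15, adjusted p = 0.00321, in strong CKO). Grb10, the gene of an adaptor that restrains insulin and IGF1 receptor signalling, averaged 475 ± 84.5 CPM in weak CKO, 405 ± 75.0 CPM in strong CKO and 725 ± 82.3 CPM in wild type lungs (−0.61 ± 0.16, adjusted p = 0.0319, in weak CKO and −0.84 ± 0.16, adjusted p = 0.00444, in strong CKO). Mest, a paternally expressed hydrolase-family gene, fell in strong CKO (−0.29 ± 0.08, adjusted p = 0.0199) and stood at −0.11 ± 0.08 in weak CKO (adjusted p = 0.407). The weak CKO call of Dlk1 was lost in 10 of 18 other settings, 6 of them with 1 library left out (MUT_S_268_4, any weak CKO library, WT_265_1 or WT_268_1; −0.64 to −0.42). That of Grb10 ended without MUT_S_265_5, MUT_W_265_2, MUT_W_268_3, WT_268_1 or WT_549_2 (−0.60 to −0.50), and the strong CKO call of Mest without MUT_S_265_5, MUT_S_860_3 or WT_549_2 (−0.27 to −0.26).

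**Figure D4:**
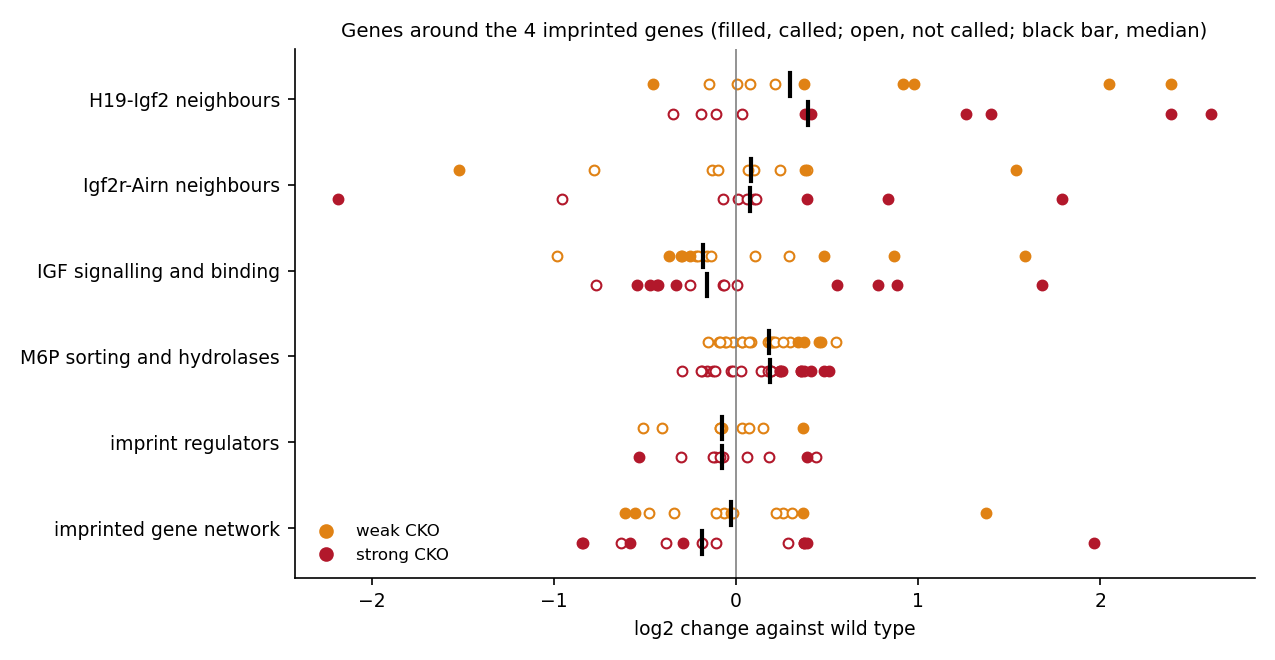
Log2 change against wild type of each tested gene in 6 lists, for weak CKO (upper row of each list) and strong CKO (lower row); filled points were called and the black bar is the list median. M6P stands for mannose 6-phosphate; of the 22 lysosomal genes 4 were called in weak CKO and 7 in strong CKO, and the IGF and imprinted network lists have calls on both sides of 0.

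No difference of these genes between strong and weak CKO lungs passed correction. Of the 4 genes 0 were called, where 0.00516% of all genes were called, which is 1 gene of 19374, the ribosomal protein gene Rpl35a (−0.89 ± 0.08, adjusted p = 0.00623), named after its value was seen. At an unadjusted p under 0.05 the count was 1099 genes, and DESeq2 called 12. H19 stood 0.32 ± 0.10 higher in strong than in weak CKO (adjusted p = 0.873), and its 3 strong CKO libraries all lay above the 3 weak CKO libraries, which was true of 6.70% of genes. Igf2r stood at −0.29 ± 0.11 (adjusted p = 0.873), with MUT_S_268_4 inside the weak CKO range. Airn stood at −0.18 ± 0.16 (adjusted p = 0.914) and Igf2 at −0.15 ± 0.18 (adjusted p = 0.936). All 3 Airn values of strong CKO lay below those of weak CKO, which was true of 6.73% of genes.

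**Figure D5:**
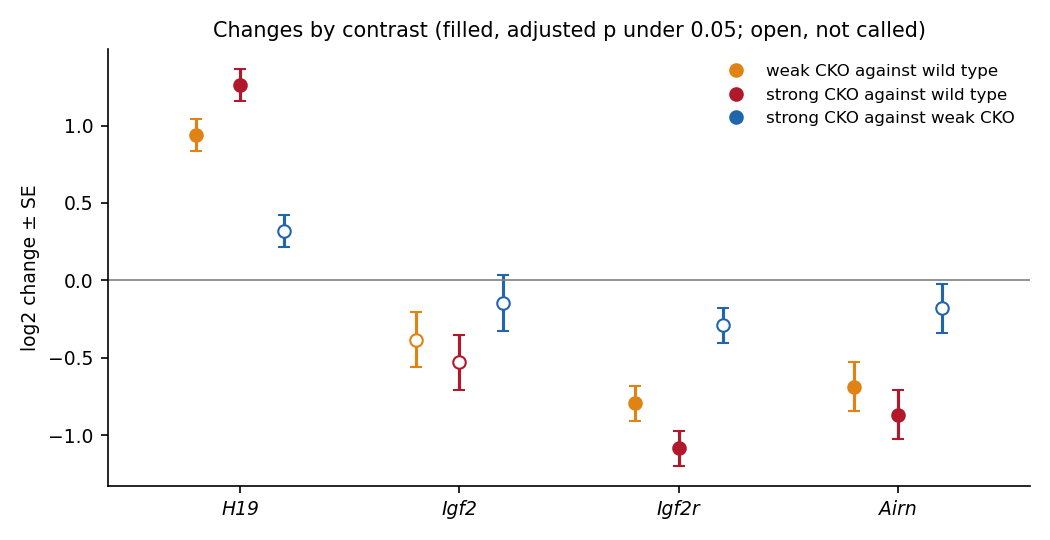
Log2 change with its standard error for each gene in the 3 comparisons; filled points had an adjusted p under 0.05. Against wild type, H19 reaches 0.94 in weak CKO and 1.26 in strong CKO, Igf2r −0.80 in weak CKO and −1.09 in strong CKO, and Airn −0.69 in weak CKO and −0.87 in strong CKO; all points between the CKO groups are open.

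The genes whose log2 CPM over the 9 libraries ran closest to each member are given as a description, among 12995 genes of at least 1 mean log2 CPM with an informative symbol, by the root mean square (RMS) difference of values centred on each gene's mean. All 9 libraries enter, so likeness includes the steps between groups. H19 was followed most closely by the cartilage collagen gene Col11a1 (RMS difference 0.089, against 0.54 for the spread of H19 itself), the cyclin gene Ccnd2 (0.095), Gas7 (0.095) and Ccno (0.098), none of them on chromosome 7. Igf2r was followed by the LIM domain gene Fhl1 (0.048, against 0.48 for Igf2r), Specc1l (0.051), the kinase gene Nuak1 (0.068) and the focal adhesion gene Tns1 (0.078). Airn was followed less closely, by Mbl1 (0.125, against 0.41 for Airn), Dock4 (0.129), the lymphatic growth factor gene Vegfd (0.134) and Uggt2 (0.141). The Igf2 entry was followed by the basement membrane proteoglycan gene Hspg2 (0.102, against 0.29), Bahcc1 (0.112), Alpk3 (0.117) and Pcdhgc3 (0.122). Airn was not among the 4 genes closest to Igf2r, nor Igf2r among those closest to Airn.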

How the data were processed

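Whole-lung RNA was sequenced by the study as single reads from 9 TruSeq libraries. The table deposited by the authors held raw counts per gene and RPKM values; per the file headers it also held a gene length. The authors' RPKM equalled count over deposited length and over 1.03 to 1.13 times the total of the column. That length matched the summed exon lengths of all transcripts plus 1 base per exon in 99.35% of 26391 genes with the annotation's exon number, so levels between genes were recomputed per kilobase of the union of exons (GENCODE M21, GRCm38). Per the submitters' processing notes, the tools included STAR, Trimmomatic 0.36, cutadapt 2.5, edgeR 3.28.1 and FastQC 0.11.8, with build GRCm38.p6. The sources used here do not give the counting tool, the strandedness or the treatment of shared exons.

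Counts were tested with edgeR 4.0.16 in R 4.3.3 (TMM factors 0.938 to 1.04, filterByExpr, 1 mean per group, robust quasi-likelihood fit of all 9 libraries, two-sided F tests). Benjamini-Hochberg adjustment ran over 19374 genes and 0.05 was the threshold. SE is an approximate standard error of a log2 change, derived as the size of the change over the square root of its F statistic. Log2 CPM used a prior count of 2, and ratios added 0.5 to each count. Alternatives were upper quartile or DESeq2 size factors, DESeq2 1.42.0, no filter, only the groups compared, the library number as a block, haemoglobin genes left out, a skeletal muscle covariate (and, chosen after seeing the data, the same without Tnni2 and Tnnt3), limma 3.58.1 on log2(RPKM + 1) or log2(RPKM + 0.1), and each library left out in turn. The edgeR script was tested on simulated data. Named were the 4 members, Dnmt1, up to 5 called genes per list by adjusted p, and 4 genes per member closest in pattern; the genes inside the Airn span are given by position, and genes outside the rule, such as Mrpl23, Zfp57, Ctcf, Igfbp2, Igfbp7, the skeletal muscle genes and Gm7579, were picked after their values were seen. The members, lists and tests were chosen with earlier results of these data known. The listed symbols Plg, Dppa3 and Myod1 had no match and were not analysed here, and 1 gene that the rule names is not reported here.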

Additional observations from a re-analysis of the deposited data

How the results depend on the processing

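H19 and Igf2r kept their direction in all 20 alternatives for each comparison with wild type, and their calls in 19. With the skeletal muscle level as covariate the calls ended for H19 (0.74 in weak CKO, 0.97 in strong CKO) and Igf2r (−0.62 in weak CKO, −0.83 in strong CKO), and Airn reversed (0.078 in weak CKO, 0.247 in strong CKO and 0.168 between strong and weak CKO). The numbers of genes called were then 206 in weak CKO and 80 in strong CKO. In a setting chosen after seeing the data, with Tnni2 and Tnnt3 left out of that level, H19 and Igf2r stayed called, Airn was not called (−0.412 in weak CKO, −0.308 in strong CKO) and stood at 0.104 between strong and weak CKO, and 1245 genes were called in weak CKO and 752 in strong CKO. This level itself separates CKO from wild type, so the 2 cannot be told apart in that fit. Reversed with the first covariate were also Dnmt1 (0.33), Mbl1 (0.021), Gm7162 (0.241) and Igfbp7 (−0.234) in strong CKO, and Sod2 (−0.003 in weak CKO, −0.18 in strong CKO) and Uggt2 (0.14 in weak CKO, 0.36 in strong CKO). Igf2 in strong CKO was called by DESeq2 and with DESeq2 size factors (−0.54 each). The cause of these shifts was not tested.

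With each library left out in turn, Igf2 ranged from −0.57 to −0.16 in weak CKO and from −0.71 to −0.30 in strong CKO. Airn in weak CKO ranged from −0.86 to −0.50. The H19 to Igf2 ratio difference ranged from 1.35 to 1.70, and without any 1 wild type library the smallest possible p was 0.0714. The genes called ranged from 1310 to 2828 in weak CKO, 3101 to 4983 in strong CKO, and 1 to 4 between strong and weak CKO. Low counts came without MUT_W_268_3 (1310), MUT_W_265_2 (1432), WT_549_2 (1766) or MUT_S_265_5 (3101). Between strong and weak CKO the number was 12 with DESeq2, 2 with limma on log2(RPKM + 0.1), 4 with only the groups compared and 3 with the replicate block.

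Library numbers did not meet the rule of every same-number correlation of deviations above 0.1. These were 0.299, −0.0869 and 0.346 between weak CKO and wild type, 0.112 and 0.083 between strong CKO and wild type, and 0.169 and −0.000546 between strong and weak CKO. For different numbers they ran from −0.38 to 0.0745, −0.132 to 0.0711 and −0.195 to 0.19 in the same order. Some same-number values thus lay above all those of different numbers, and whether the numbers mark pairs is not settled. With the number as a replicate block, the genes called were 3926 in weak CKO (2803 without it) and 4450 in strong CKO (4969 without it), the changes in weak CKO were 0.94 for H19, −0.80 for Igf2r, −0.66 for Airn and −0.35 for Igf2, those in strong CKO 1.23, −1.02, −0.88 and −0.54 for the same genes, and no call of the 4 genes changed. For the log2 ratios no block was fitted, and the mean of the CKO minus wild type differences within a library number was taken. It was 1.51 for the H19 to Igf2 ratio and 0.17 for the Airn to Igf2r ratio. This mean leaves out MUT_S_860_3, which has no wild type partner, and uses WT_265_1 and WT_268_1 for both CKO groups. Of 75 other called changes of named genes with 1499 values under the alternatives, 1237 stayed called in the same direction, 254 lost the call and 8 reversed. None of the 75 stayed called in all alternatives, 45 did in all but those with a covariate, and 28 lost the call without at least 1 library.

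Counting error was small for H19 and Igf2r and larger for the Igf2 entry, with means of 319 counts in weak CKO, 257 in strong CKO and 402 in the wild type libraries.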
